A study of Zea mays with 11 samples.

Results

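The 1598 genes described here are the nuclear gene models of maize whose upstream region carried almost no CG methylation in the ear leaf. A gene was taken when its upstream CG level in the leaf library was above 0 and under 5% on at least 20 CG calls, where a call is 1 read of 1 cytosine. They make up 4.05% of the 39475 nuclear gene models and 4.36% of the 36628 with at least 20 upstream CG calls in leaf. The series measured cytosine methylation by bisulfite sequencing of genomic DNA from the inbred line Mo17, grown in the field and self-pollinated. Whole seed was taken at 3 and 5 days after pollination (2 libraries), and dissected endosperm, the nutritive tissue of the kernel, at 8 later stages, which were day 7, days 9 to 11 without a gap, days 13 and 15, and days 20 and 25 (8 libraries). The ear leaf of 13 days (1 library) was the control tissue. Every stage is 1 library, so p-values measure the spread between libraries of different age. Both seed samples precede all endosperm samples, so that tissue and age cannot be told apart, and a whole seed mixes embryo, endosperm and maternal tissue.

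In plants, cytosines are methylated in the CG, CHG and CHH contexts, where H is A, C or T. CG methylation is copied to the new strand at each cell division, CHG methylation is kept up together with a histone mark, and CHH methylation has to be laid down anew, in part by a pathway guided by small RNAs. Maize genes lie among transposons that are densely methylated in CG and CHG, while the stretch just before many transcribed genes is free of methylation. Methylation of a gene body in CG alone is common in plant genes, and methylation of the body in both CG and CHG is the pattern of transposons and silent genes.

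The total number of calls ran from 143230165 in leaf to 223198933 in 11-day endosperm, and no 2 libraries held the same values. The chosen genes had a median of 296 to 521 upstream CG calls per gene in a library. Models of chloroplast genes, whose cytosines are taken to be unmethylated, gave CG levels of 7.59% and 6.19% in the 3- and 5-day seed and of 1.88 to 2.82% in the other 9 libraries. Models of mitochondrial genes gave CG levels of 2.22% and 2.31% in the seed libraries, 1.82 to 2.39% in endosperm and 3.77% in leaf. The 10-day endosperm stood apart from the other endosperm libraries in the upstream regions, and the means and counts that rest on it are given with and without it.

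The leaf level of the 1598 genes ran from 0.15 to 4.99%, with a median of 2.38%, on 21 to 5290 calls. These values chose the genes and are given as a description. The leaf level of the chloroplast models, 2.14%, lay close to this median, and that of the mitochondrial models, 3.77%, lay above it. Hence "unmethylated" here means under 5% and not a measured 0. Of the genes, 168 rested on 1 methylated call, 589 on 2 to 5 and 841 on 6 or more. A further 189 nuclear genes had no methylated upstream CG call in leaf on at least 20 estimated calls and are left out by the rule. Just inside the threshold, at 4.5 to 5%, lay 126 genes, with a median mean level of 5.90% in seed and 5.71% in endosperm. Just outside, at 5 to 5.5%, lay 149 genes, with 6.14% and 6.09%. The 19 genes with 20 to 29 leaf calls had medians of 16.5% in seed and 21.4% in endosperm.

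In each seed and endosperm library other than the 10-day one most of the covered genes were under 5%, while a minority was above 20%. The median gene stood at 3.00 to 3.04% in the 2 seed libraries and at 2.46 to 3.00% in 7 of the endosperm libraries. Over the 10 seed and endosperm libraries the other nuclear genes had medians of 67.3 to 76.5% and means of 58.5 to 65.7%. The mean over the genes was 5.71% ± 0.548 in seed (SD, n = 2) and 5.77% ± 2.04 in endosperm (SD, n = 8). The 10-day endosperm had a mean of 10.7% and a median of 5.89%, and the other 7 endosperm libraries had means of 4.36 to 5.49% (5.07% ± 0.498, SD, n = 7). In the 10-day library 43.8% of the covered genes were under 5%, against 68.2 to 76.6% in the other 9 libraries. The other nuclear genes were shifted there too, with a mean of 65.4% against 58.5 to 63.6% in the other 7 endosperm libraries. Of them 1.15% were under 5% in the 10-day library, against 2.21 to 3.26% in the other 9 libraries. In the 10-day library the upstream regions of the chosen genes also drew more calls relative to their gene bodies (median ratio 1.46, against 1.12 to 1.21 in the other endosperm libraries), a shift seen over all nuclear genes too (1.13 against 0.867 to 0.977). Whether this shift of coverage bears on the levels was not tested.

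**Figure D1:**
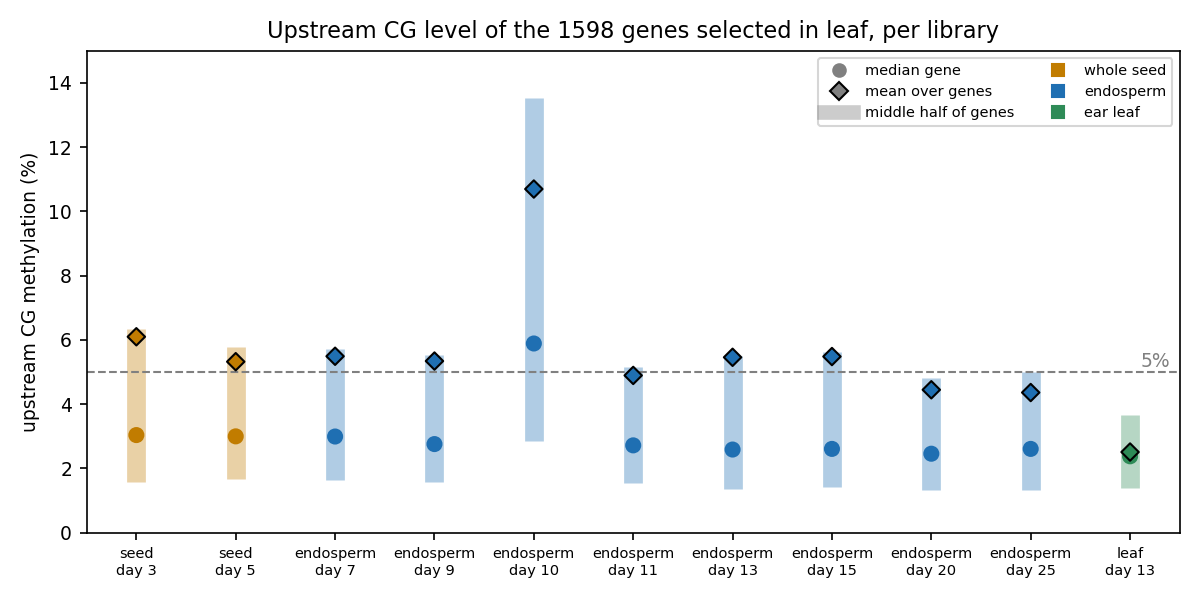
Upstream CG methylation in percent (vertical axis) of the 1598 genes in each of the 11 libraries (horizontal axis). Circles are the median gene, diamonds the mean over genes and bars the interquartile range. The 10-day endosperm has a median of 5.89% and lies above the other seed and endosperm libraries, whose medians are 2.46 to 3.04%. The leaf values chose the genes.

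Of the 1598 genes, 449 (28.1%) were under 5% with at least 20 calls in every one of the 10 seed and endosperm libraries. Coverage reached 20 calls in all 10 libraries for 1508 genes, so that 29.8% of the covered genes stayed low throughout. Without the 10-day endosperm the count was 655 (41.0%). Another 206 covered genes were thus at or above 5% in the 10-day library and in no other. Both seed libraries were low for 925 genes and all 8 endosperm libraries for 478, or 717 without the 10-day one. Because a level near 5% can cross the line by counting error, the 95% Wilson interval of each level was also used. Its upper bound lay under 5% in all 10 libraries for 195 genes, and its lower bound lay above 5% in no library for 692 of the covered genes, in the 10-day library alone for 242, and in all 10 for 30. Among the 35030 nuclear genes outside the set with at least 20 leaf calls, 41 (0.117%) were low in all 10 libraries. The chosen genes were therefore 449 of the 490 genes that were low throughout seed and endosperm. Of the 41, 11 had a leaf level of 0, 29 one of 5 to 10% and 1 the highest, 11.7% (GRMZM2G440882). The intervals hold counting error alone, as the reads carry no molecular identifiers and may share a molecule.

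A name was available for 133 of the 1598 genes, from a RefSeq table that matched 914 of them, and 46 of the 133 stayed low in all 10 libraries. Among these were transcription factors, among them OFP25, OFP29 and OFP32 of the ovate family, ARF18, an auxin response factor, GRF5, a growth-regulating factor, and scl23, a scarecrow-like factor. Genes of basic cell functions were also there, including SMC3, a subunit of the cohesin ring that holds sister chromatids together, tbp2, a TATA-binding protein, bip2, a chaperone of the endoplasmic reticulum, CaM1, a calmodulin, rpl5, a ribosomal protein, and als1, acetolactate synthase of branched-chain amino acid synthesis. These examples were picked after their values were seen. On the gene lists described below, 0 of 43 housekeeping and cytoskeleton genes and 0 of 25 cell cycle and histone genes were in the set. Their median upstream CG levels in leaf were 77.8% and 78.6%. No sequence of these upstream regions was used here.

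The 8 named low genes with the deepest coverage in leaf are described next; being under 5% in every library was what chose them. OFP29 (GRMZM2G127431, chromosome 3, plus strand, 198039992 to 198041529) had upstream CG levels of 2.00% and 0.77% in the 3- and 5-day seed, of 1.10 to 2.12% in endosperm (median 1.65%, n = 8) and of 0.99% in leaf, on 894 to 1317 calls. ARF18 (GRMZM2G035405, chromosome 5, 42299881 to 42304178) had 2.24% and 1.76% in seed, 0.92 to 1.99% in endosperm (median 1.73%) and 1.16% in leaf. GH3 (GRMZM2G378106, chromosome 2, 209110460 to 209113041), named for a family of enzymes that attach amino acids to auxin, had 1.34% and 1.70% in seed, 0.73 to 1.78% in endosperm (median 1.16%) and 0.95% in leaf. In all 3 genes the libraries overlapped, and the 10-day endosperm lay within the range of the others. The small GTPase gene rop6 (GRMZM2G176217) ranged from 0.39 to 3.54% over the 10 libraries and MAGE (GRMZM2G142119) from 0.38 to 2.06%. SMK2 (GRMZM2G023528), named for a small-kernel mutant, ranged from 1.05 to 2.79%, and piip2 (GRMZM2G300135) from 0.74 to 1.99%. The widest range of the 8 was that of scl23 (GRMZM2G106548), from 1.35 to 4.54%, with the highest level at day 20.

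At the other end, 312 genes were above 20% in at least 1 seed or endosperm library with 20 calls. For 135 of them this held in the 10-day endosperm alone, which leaves 177 in the other 9 libraries. 7 genes were above 20% in all 10 libraries, none of which has a name. GRMZM2G027056 (chromosome 10, minus strand, 145094922 to 145096612) had 47.9% and 56.6% in seed, 34.4 to 48.7% in endosperm (median 38.8%) and 3.17% in leaf, where the level rests on 126 calls (95% Wilson interval 1.24 to 7.88%). GRMZM5G871910 (chromosome 5, 76212642 to 76216507) had 47.3% and 52.4% in seed, 22.3 to 76.6% in endosperm (median 55.4%) and 4.30% on 256 calls in leaf. The seed and endosperm libraries overlapped at both genes. GRMZM5G872120 on chromosome 10 showed the highest levels of the 7, from 48.7 to 89.0% over the 10 libraries, but its leaf level of 4.76% rests on 21 calls (interval 0.85 to 22.7%). The other 4 had leaf levels of 1.92 to 4.07% on 52 to 344 calls, with intervals that reached up to 11.3%. No gene was above 20% in both seed libraries and in no endosperm library, or the reverse.

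The named genes above 20% in a seed or endosperm library included a regulator of development and an enzyme of small RNA production. TD1 (GRMZM2G300133, chromosome 5, plus strand, 61670412 to 61673965), a receptor kinase gene known from the thick tassel dwarf mutant, which limits the size of inflorescence meristems, had 3.81% in leaf on 105 calls. Its seed levels were 32.4% and 39.0% and its endosperm levels 10.5 to 75.6% (median 42.6%, on 38 to 315 calls), the lowest at day 20 and the highest at day 10. Its body stayed at 0.79 to 2.01% in CG in all 11 libraries, and piip2, its next model on the 3′ side, was among the genes that stayed low. The Dicer-like gene dcl4 (GRMZM2G050882, chromosome 10, minus strand, 130059191 to 130073070), whose product cuts double-stranded RNA into small interfering RNAs, had a leaf level of 0.66% on 303 calls. It stood at 42.0% and 26.9% in seed and at 19.8 to 42.1% in endosperm from day 7 to day 15, but at 2.52% and 3.49% at days 20 and 25, on 402 to 670 calls. The fit of endosperm levels on day gave no call for any of the 1531 genes tested in upstream CG, so that this order of libraries is a description.

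The superoxide dismutase gene sod4 (GRMZM2G169890, chromosome 1, 60145100 to 60148692) had 58.9% and 17.7% in seed, 23.9 to 53.2% in endosperm from day 7 to day 15, 8.0% and 0% at days 20 and 25 and 2.38% in leaf, on 42 to 133 calls. The malic enzyme gene me4 (GRMZM2G118770, chromosome 8) had 42.9% and 39.2% in seed, 5.51 to 37.1% in endosperm (median 20.2%) and 2.94% in leaf on 34 calls. The seed and endosperm libraries overlapped at sod4, while both seed libraries lay above all endosperm libraries at me4, which did not pass the test of seed against endosperm in upstream CG. WRKY30 (GRMZM2G143204), of the WRKY family of transcription factors, ranged from 9.30 to 68.4% over the 10 libraries, on as few as 17 calls. The kinase gene mpk6 (GRMZM2G089484) ranged from 12.1 to 66.7% on as few as 14 calls, and its leaf level of 4.76% rests on 21. CPP12 (GRMZM2G342588) had no value in 3 of the 10 libraries and as few as 3 calls in the rest, so its levels are not given. DBP4 (GRMZM2G380377), named as a DNA-binding protein, had 48.2% in the 10-day endosperm and 0.80 to 16.2% in the other endosperm libraries. GRMZM2G441541, which carries a clone name, ranged from 0.69 to 58.0% over the 10 libraries, on as few as 17 calls. Its highest level without the 10-day endosperm was 31.0%.

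**Figure D2:**
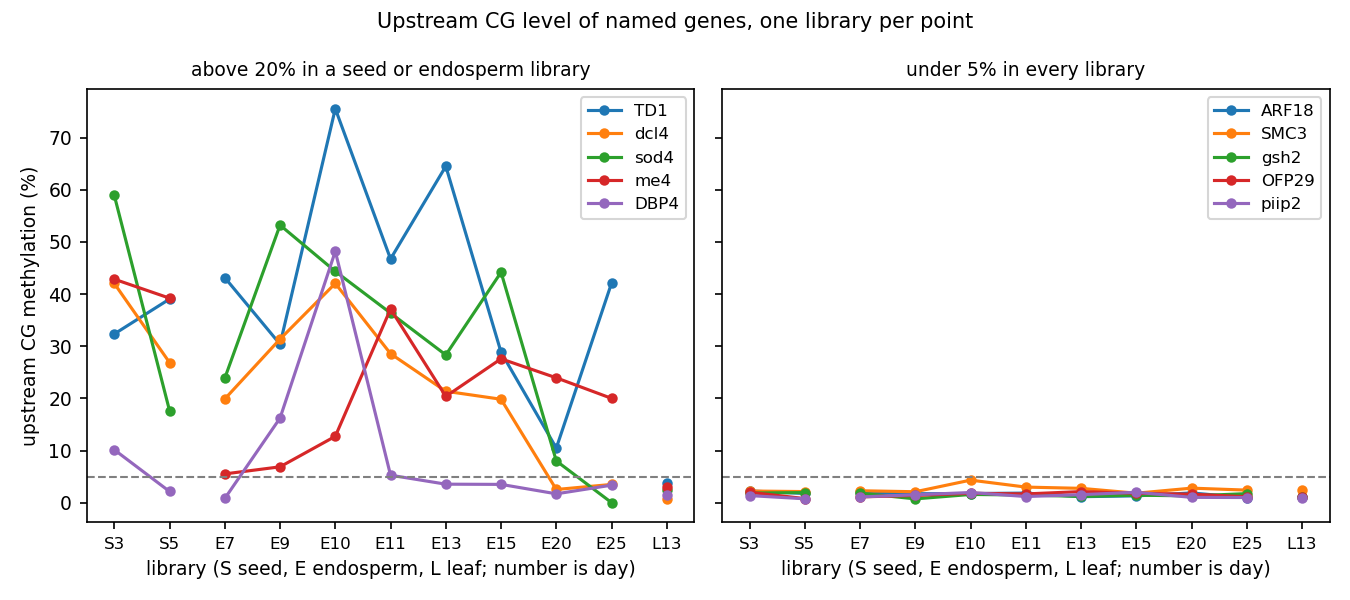
Upstream CG methylation in percent of 10 named genes in each library (S whole seed, E endosperm, L leaf, with the day after pollination). On the left TD1 reaches 75.6% at day 10, and dcl4 and sod4 are under 9% at days 20 and 25. On the right are 5 genes that stayed under 5% in all libraries.

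The 10-day library was high for other named genes whose remaining libraries were low. The sucrose transporter gene sut1 (GRMZM2G034302) stood at 21.2% there and at no more than 5.22% in the other 9 seed and endosperm libraries. The coproporphyrinogen oxidase gene cpx2 (GRMZM2G032282) stood at 31.2% and at no more than 5.14% elsewhere, and rld2 (GRMZM2G042250), a gene of leaf polarity, at 29.3% and at no more than 5.76%. These 3 genes were each also just above 5% in at least 1 other library. Other genes were under 5% in all but the 10-day library: myb31 (GRMZM5G892094), of the MYB family of transcription factors, at 16.6% there and at no more than 2.61% elsewhere, bk4 (GRMZM2G168364) at 28.1% and at no more than 4.53%, and stk1 (GRMZM2G165433) at 8.63% and at no more than 1.68%. By contrast rld1 (GRMZM2G109987), another gene of leaf polarity, ranged from 14.7 to 42.6% over the 10 libraries against 4.5% in leaf, and 34.0% was its highest level without the 10-day library.

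The gene bodies of the 1598 genes were less methylated than those of other genes, and most of them were nearly free of methylation. In leaf, 797 of the 1412 genes with at least 20 body CG calls (56.4%) had a body CG level under 5%, against 11481 of 30795 other nuclear genes (37.3%). The median body CG level was 2.98% in leaf, against 18% for the other nuclear genes. The mean was 17.3% in leaf, 16.6% ± 0.394 in seed (SD, n = 2) and 15.7% ± 0.535 in endosperm (SD, n = 8), and the upper quartile lay at 17.2 to 22.6% in the 11 libraries. The 10-day endosperm, with a mean of 16.3% against 14.6 to 16.2% in the other 7, did not stand apart in the body. Body CHG had a mean of 10.6% ± 0.286 (SD, n = 2) in seed, 8.88% ± 0.696 (SD, n = 8) in endosperm and 10.5% in leaf, and body CHH of 1.95% ± 0.171 (SD, n = 2), 1.42% ± 0.142 (SD, n = 8) and 1.68%. In both contexts the 2 seed libraries lay above all 8 endosperm libraries. The same held for the means of the other nuclear genes. These were 23.6 to 24.5% in seed against 18.1 to 21.9% in endosperm in CHG, and 2.32 to 2.58% against 1.51 to 1.83% in CHH. Chloroplast models in these libraries had CHG levels of 8.14% and 6.69% in seed and 2.14 to 2.66% in endosperm. Mitochondrial models had CHG levels of 3.06% and 3.01% in seed and 2.31 to 2.89% in endosperm. In CHH the chloroplast models had 0.854 to 1.07% in seed and 0.690 to 0.977% in endosperm. What part of the CHG and CHH values this background makes up was not tested.

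Of the 1398 genes that could be placed in a body class in leaf, 760 (54.4%) were under 5% in both CG and CHG. Another 126 (9.01%) had at least 20% CG with CHG under 5%, the pattern of body methylation in CG alone, and 166 (11.9%) had at least 20% in both contexts. The other nuclear genes divided as 35.7%, 10.0% and 29.1%. The chosen genes thus differed from other genes in the low class and in the class high in both contexts, and little in the class high in CG alone. These are shares of genes in 1 library and carry no test. Median gene length was 1756.5 bp in the low class, 4352 bp in the CG class and 5479.5 bp in the class high in both.

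**Figure D3:**
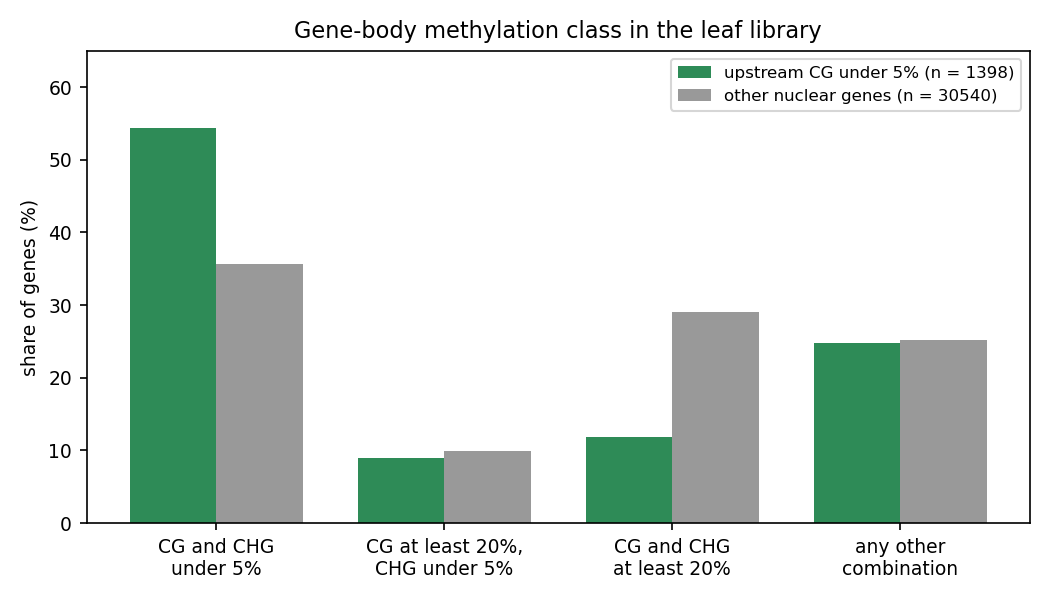
Share of genes in percent (vertical axis) in 4 classes of gene-body methylation in the leaf library (horizontal axis), for the genes with upstream CG under 5% and for the other nuclear genes. The low class holds 54.4% of the former and 35.7% of the latter, and the class high in CG and CHG 11.9% and 29.1%.

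Genes of the low class and of the class high in both contexts kept their leaf class more often than those of the CG class. Of the low class, 471 of 656 genes with coverage (71.8%) kept their class in all 10 seed and endosperm libraries, and of the class high in both contexts 94 of 155 (60.6%). Of the CG class 17 of 120 did so (14.2%). The median leaf body CG level was 1.16% in the low class, 33.3% in the CG class and 69.5% in the class high in both. How far counting error moved genes across the limits of a class was not tested. The upstream region stayed low in all 10 libraries for 30.3% of the low class, 26.2% of the CG class and 24.1% of the class high in both.

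Several genes joined a bare upstream region to a methylated body. SMC3 (GRMZM2G456570, chromosome 6, plus strand, 167964381 to 167982939) had upstream CG levels of 2.23% and 2.12% in seed, 1.81 to 4.32% in endosperm (median 2.57%) and 2.49% in leaf. Its body CG levels were 76.1% and 72.5% in seed, 78.4 to 87.0% in endosperm (median 80.7%) and 76.2% in leaf, and its body CHG levels 37.6 to 49.4% in endosperm. The gene gsh2 (GRMZM2G155974, chromosome 3, 133785192 to 133798384), for glutathione synthesis, had upstream levels of 0.72 to 1.93% over the 10 libraries beside body CG levels of 48.7 to 72.2%. ARF18 had body CG levels of 20.6 to 60.2% over these libraries with body CHG at 0.53 to 3.42% in endosperm, so that its body methylation was in CG alone. For these 3 genes the upstream and body ranges did not overlap in any library.

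The body of dcl4 was the most methylated among the named genes with 20 body CG calls in leaf. It stood at 91.2% CG in leaf, 94.4% and 92.2% in seed and 88.6 to 92.7% in endosperm (median 91.1%), with body CHG at 70.0 to 76.1% in endosperm and 80.7% in leaf. Over the 10 seed and endosperm libraries its upstream level moved between 2.52% and 42.1%, while its body CG level stayed between 88.6% and 94.4%. The upstream leaf level, which chose the gene, is left out of this range. AMA1 (GRMZM2G172369) had a body CG level of 86.4% in leaf and cpx2 one of 79.3%. Top1 (GRMZM2G092451), for DNA topoisomerase I, had 58.5%, and rld2 had 49.9%. At the lower end 7 named genes were tied at a leaf body CG level of 0%, AR2 (GRMZM2G059306), psa6 (GRMZM2G012397), tif1 (GRMZM5G835323), cc10 (GRMZM2G030717), cko2 (GRMZM2G050997), LOB19 (GRMZM2G079185) and ysl11 (GRMZM5G812538). In endosperm tif1 had 7.63 to 29.1% body CG (median 21.9%), against 0% on an estimated 128 calls in leaf, and cc10 had 0 to 5.00%.

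The non-CG contexts of the upstream region were also low. In leaf the median upstream CHG level was 2.51% and the median CHH level 1.21%, against 68.0% and 3.61% for the other nuclear genes. Since these calls come from the reads that chose the genes, they carry no test. In seed the mean was 6.28% ± 0.422 in CHG and 2.97% ± 0.316 in CHH (SD, n = 2). In endosperm it was 5.63% ± 1.74 and 2.36% ± 0.495 (SD, n = 8), and the 10-day library was again the highest, at 9.65% and 3.49%. Without it the endosperm means were 5.06% ± 0.660 and 2.20% ± 0.204 (SD, n = 7).

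Whole seed was compared with endosperm at single genes to see which of these regions differed between the tissues, with limma fitted over all nuclear genes and a Benjamini-Hochberg adjusted p threshold of 0.05. The leaf was left out, since it chose the genes. Upstream, 3 of 1531 genes passed in CG, where 0.356% of all genes tested passed, 32 of 1521 in CHG (13.1%) and 61 of 1536 in CHH (7.26%), and all were higher in seed. In the body 13 of 1302 passed in CG (1.19%), 26 of 1311 in CHG (3.49%) and 40 of 1320 in CHH (4.88%), again higher in seed apart from 1 in CHG. Without the 10-day endosperm the upstream counts were 6, 50 and 81. With day as a covariate upstream CHG gave 0, among all genes tested too. With 1 library left out it gave 4 (without the 3-day seed) to 50, and upstream CHH gave 45 (without the 11-day endosperm) to 104 (without the 5-day seed). With all 10 libraries the share of the chosen genes that passed was below that of all genes tested in each measure, and in upstream CHG it was 2.10% against 13.1%. This order did not hold with 1 library left out. In upstream CHG it was 0.263% against 0.0800% without the 3-day seed and 0.460% against 0.375% without the 5-day seed. Upstream CHH gave 3.06% against 2.77% and body CHG 0.458% against 0.438% without the 3-day seed. Without the 5-day seed the shares were 0.261% against 0.143% in upstream CG, 1.15% against 0.756% in body CG and 1.37% against 1.34% in body CHG. Without the 10-day endosperm upstream CG gave 0.392% against 0.375%. By direction, 0.342% of all genes tested were higher in seed and 0.0138% lower in upstream CG, 13.1% and 0.0248% in upstream CHG and 7.25% and 0.0159% in upstream CHH. In the body these shares were 1.16% and 0.0314% in CG, 3.47% and 0.0249% in CHG and 4.88% and 0.00305% in CHH. The shares are given as a description, with no test between the sets. The median difference of seed from endosperm over the genes tested was -0.20 percentage points in upstream CG, 0.17 in upstream CHG and 0.21 in upstream CHH, beside 1.38, 8.66 and 0.74 over all genes. Without the 10-day endosperm these medians were 0.19, 0.45 and 0.34 for the chosen genes, so that the sign in CG rests on that library. With 1 library left out they ran from -0.34 to 0.19 in CG, 0.06 to 0.45 in CHG and 0.085 to 0.34 in CHH, and with day as a covariate they were -0.67, -0.38 and 0.15.

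The largest differences in upstream CHH, picked after the values were seen, were at 2 unnamed neighbours on chromosome 7. GRMZM2G353726 (147050020 to 147053451) had 33.0% and 30.9% in seed, 2.48% ± 1.82 (SD, n = 8) in endosperm and 6.29% in leaf. GRMZM2G053083 (147058733 to 147062148) had 31.6% and 28.4% in seed, 2.18% ± 2.00 (SD, n = 8) in endosperm and 3.94% in leaf. The limma adjusted p was 4.6e-05 for each. The seed libraries lay above all endosperm libraries at both. They share the same 5′ neighbour, AC207722.2_FG009, so their upstream regions lie close together and are not independent examples. GRMZM2G432738 (chromosome 7, 162953715 to 162959556) was higher in seed in all 3 contexts, with CG levels of 24.5% and 16.3% against 6.28% ± 2.60 (SD, n = 8; limma adjusted p = 0.0439), CHG of 33.7% against 12.1% and CHH of 21.7% against 3.41%.

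The other 2 genes that passed in upstream CG were GRMZM5G892341, at 18.2% and 11.9% in seed against 4.99% ± 1.26 (SD, n = 8; limma adjusted p = 0.0494), and GRMZM2G358205, at 9.01% and 8.44% and at 1.81% ± 0.692 (SD, n = 8; limma adjusted p = 0.0440). Both overlap their 5′ neighbour and had leaf depths of 2327 and 2697 calls, against the median of 296, with 154 to 474 calls in the seed libraries. The chloroplast models were also higher in the 2 seed libraries, by the values given above. The mitochondrial models were within their endosperm range there in CG. The part of this background in these results was not tested. The CG count of 3 was 0 with a constant prior, under a quasi-binomial model, with day as a covariate, and without the 3-day seed or any 1 of 7 endosperm libraries, so it rests on single libraries and settings.

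Named genes with a difference upstream were few. The chloroplast and mitochondrial models were also higher in seed in CHG, by the values given above. What part this background has in the CHG calls at single genes, here and below, was not tested. The cytokinin oxidase gene cko2 (GRMZM2G050997) had CHG levels of 8.11% and 11.8% in seed against 4.70% ± 1.19 (SD, n = 8; limma adjusted p = 0.0376). In CHH, HD6 (GRMZM5G845755) had 12.8% and 5.10% against 2.67% ± 0.945 (SD, n = 8; limma adjusted p = 0.0311), gla3 (GRMZM2G473711) 7.27% and 5.53% against 2.17% ± 0.619 (SD, n = 8; limma adjusted p = 0.00586), and rpl5 (GRMZM5G831780) 3.04% and 4.01% against 0.984% ± 0.652 (SD, n = 8; limma adjusted p = 0.0129). PPCK2 (GRMZM2G135091), a kinase gene named for phosphoenolpyruvate carboxylase, had 4.15% and 3.45% against 1.71% ± 0.553 (SD, n = 8; limma adjusted p = 0.0336). The groups did not overlap at any of these 5 genes, but the test that picked them favours such genes. Of the chosen genes that passed, the same held for 32 of 32 in upstream CHG and 59 of 61 in upstream CHH. The leaf lay with endosperm at HD6, gla3 and PPCK2 and nearer to seed at cko2 and rpl5.

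In the body AUX17 (GRMZM2G079957, chromosome 1, 170535129 to 170537140), whose upstream region stayed low in all 10 libraries, had CHG levels of 45% and 40.6% in seed, 0 to 19.6% in endosperm (7.32% ± 6.83, SD, n = 8) and 22.6% in leaf (limma adjusted p = 0.00473). Its CG levels were 43.6% and 22.4% in seed against 6.77% ± 4.00 (SD, n = 8; limma adjusted p = 0.0237), a call that was lost under the quasi-binomial model. MADS36 (GRMZM2G079727, chromosome 3, 201299150 to 201303771), of the MADS-box family of transcription factors, also had a low upstream region throughout, and its body CHH level was 16.2% and 18.4% in seed, 0.59 to 4.41% in endosperm (2.12% ± 1.49, SD, n = 8) and 7.68% in leaf (limma adjusted p = 0.000138). These 2 genes thus differed in the body while the upstream CG level stayed under 5%.

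The YABBY gene DL1 (GRMZM2G088309) had body CHG levels of 13.5% and 7.11% in seed against 2.70% ± 0.812 (SD, n = 8; limma adjusted p = 0.0172). The pigment gene pac1 (GRMZM2G058432), whose name 2 gene models carry, had 7.84% and 6.28% against 1.76% ± 0.662 (SD, n = 8; limma adjusted p = 0.00592). The metal-chelate transporter gene ysl11 (GRMZM5G812538) had body CG levels of 5.88% and 7.5% against 1.30% ± 1.47 (SD, n = 8; limma adjusted p = 0.0312). Its endosperm level was 0% at days 13, 15, 20 and 25. The quasi-binomial model, which uses the call counts, called 0 of the chosen genes in body CG, so this call was lost there. MTD1 (GRMZM2G332560), a name also carried by 2 models, had body CHH levels of 3.63% and 1.68% against 0.892% ± 0.287 (SD, n = 8; limma adjusted p = 0.0434). In all 4 the seed libraries were higher than every endosperm library, which the test that picked them favours. Of the chosen genes that passed in the body, the groups did not overlap at 13 of 13 in CG, 25 of 26 in CHG and 40 of 40 in CHH. The 1 gene that was lower in seed, GRMZM2G475521, had a body CHG level of 0% in both seed libraries and 2.04% in endosperm (limma adjusted p = 0.0409).

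**Figure D4:**
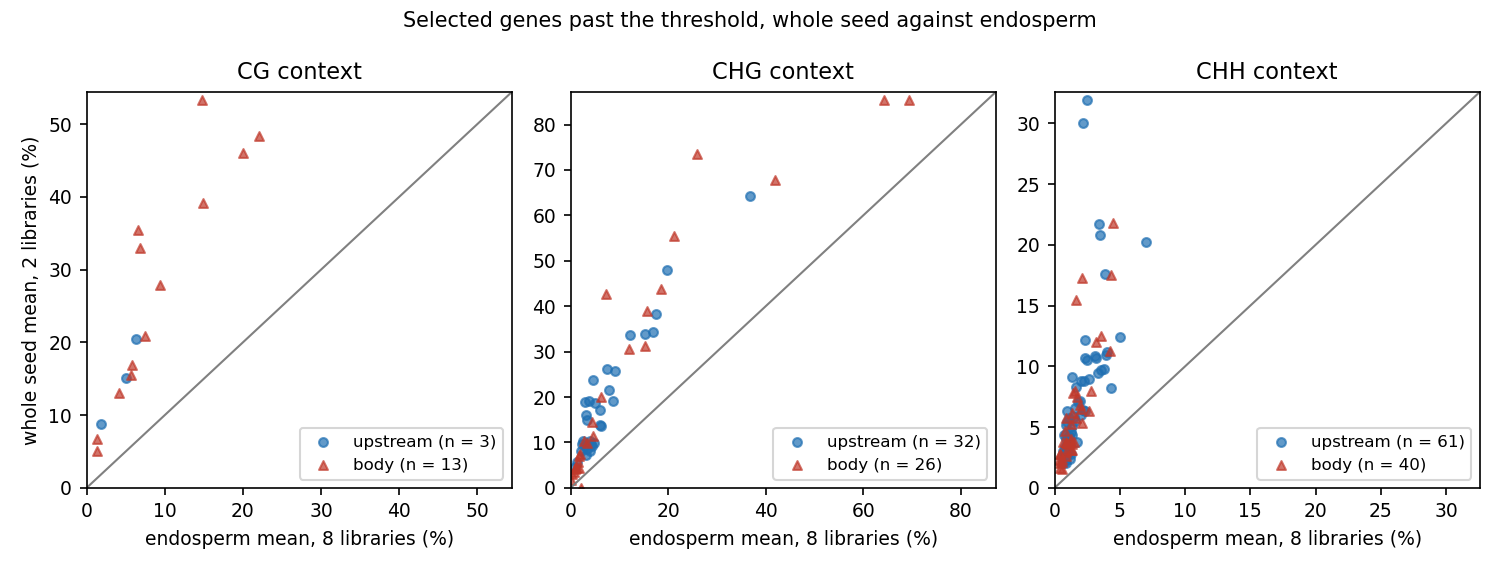
Mean methylation level in percent in whole seed (vertical axis, 2 libraries) against endosperm (horizontal axis, 8 libraries) for the chosen genes that passed the threshold, by context, with circles for the upstream region and triangles for the gene body. Points above the grey line are higher in seed, which holds for all but 1 of the gene bodies in CHG.

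With day of endosperm as a straight line, 0 of the genes passed in any of the 6 measures (limma), where 0% of all genes passed in each. At an unadjusted p under 0.05 stood 57 of 1531 genes in upstream CG (6.05% of all genes tested), 75 of 1521 in upstream CHG (10.3%), 119 of 1536 in upstream CHH (15.2%), 51 of 1302 in body CG (5.11%), 79 of 1311 in body CHG (7.63%) and 110 of 1320 in body CHH (7.48%). A quasi-binomial model gave 1 gene in upstream CHG (0.00276% of all genes tested) and 0 in the other 5 measures, where it called 0.0718% of all genes in upstream CHH and 0% in the others. With a constant prior, limma gave 6 genes in upstream CHH (1.84% of all genes tested) and 1 in body CHH (0.0274%), so a count of 0 does not show that no gene changed with day.

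The gene lists of the study's themes held few of the genes. Of 20 starch synthesis genes with at least 20 leaf calls, 0 were in the set, and their median upstream CG level in leaf was 74.3%. Over the 9 lists this median ran from 49.0% to 90.3%. There were also 0 of 19 transfer layer and aleurone genes, 7 Polycomb and imprinted genes, 20 genes of the DNA methylation machinery, 14 photosynthesis genes, 43 housekeeping and cytoskeleton genes and 25 cell cycle and histone genes. Of 54 developmental regulators 3 were in the set (5.56%, against 4.36% of all genes): TD1, ZAG3 and NAC1. ZAG3 (GRMZM2G160565), a MADS-box gene of the flower, had 4.97% and 7.12% in seed and 2.06 to 4.61% in endosperm. NAC1 (GRMZM2G336533) lacked a value in 4 of the 10 libraries and ranged from 0.81 to 5.61% in the others. Of 19 storage protein genes and regulators 1 matched, GLB1 (GRMZM2G067402), but only by its symbol: the RefSeq table also names this model Hb, a haemoglobin symbol, and lists the storage protein globulin-1 under another model, which was not in the set. Its levels were 1.15% and 3.08% in seed and 1.41 to 3.29% in endosperm, low in every library.

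Families of names were formed after the data were seen. Of 364 transcription factor genes in such families, 33 (9.07%) were in the set, and 12 of them stayed low in all 10 libraries. Of all genes with a name 5.51% were in the set, and of those without one 4.28%. The families with members in the set included 4 of 11 OFP, 3 of 5 DOF and 3 of 10 LOB genes. Also in it were 4 of 17 ARF, 4 of 33 EREB, 2 of 19 WRKY and 3 of 29 MADS genes. The set further held 1 of 6 GATA, 2 of 23 NAC and 1 of 16 GRF genes. The 364 leave out the CNR names, of which 3 of 12 were in the set. Nearer the 4.36% of all genes lay 2 of 59 MYB, 2 of 44 bHLH, 1 of 30 homeobox and 1 of 21 SBP genes. The set held 0 of 27 bZIP, 9 GLK and 5 TCP genes. DOF10 (GRMZM2G435475) was a gene of the set that did not stay low, with 7.07 to 27.8% over the 10 libraries against 3.02% in leaf. These families are small and some members are closely related, so the shares are a description.

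The chosen genes lay closer to a neighbouring gene on their 5′ side than other genes did. The median distance to the next model was 3013.5 bp, against 31126 bp for the other nuclear genes with at least 20 leaf calls. A neighbour lay within 1 kb or overlapped for 23.0% of the genes and 9.06% of the others, and a head-to-head one for 10.6% and 5.10%. The share of genes in the set was 6% with an overlapping head-to-head neighbour (42 of 700), 8.80 to 13.7% at each distance up to 5 kb without overlap, in both orientations, 2.82 to 4.40% at 5 to 20 kb and 1.17 to 1.51% beyond. The upstream region of a gene close to its neighbour can hold part of that neighbour, and how wide the upstream region was drawn is not stated in the sources used here. Those that stayed low in all 10 libraries lay closer still, with a median distance of 2184 bp against 3402 bp for the rest of the set. The share that stayed low was 23.8% with an overlapping neighbour, 38.5% with one within 1 kb, 30.1% at 1 to 5 kb, 19.5% at 5 to 20 kb and 18.6% beyond. In 13 head-to-head pairs within 1 kb both models were in the set. In 3 of these pairs both stayed low in all 10 libraries, and in 7 just 1 did.

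**Figure D5:**
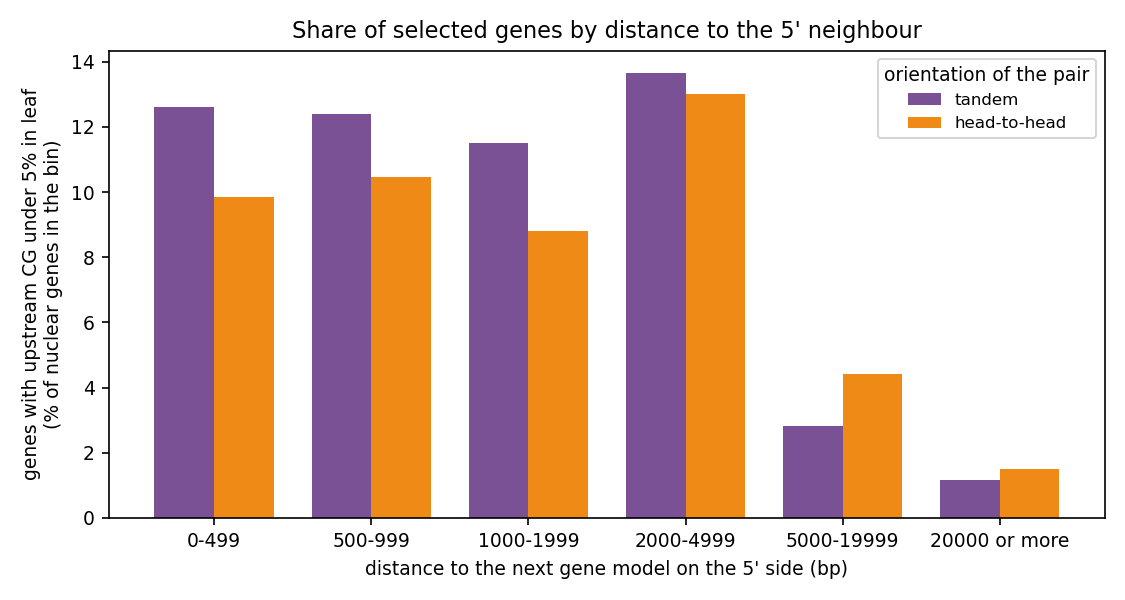
Share of nuclear genes in percent (vertical axis) whose upstream CG level was under 5% in leaf, by the distance in bp to the next gene model on the 5′ side (horizontal axis), for neighbours in tandem and head-to-head. Overlapping neighbours are not drawn. The share is 8.80 to 13.7% up to 5 kb and 1.17 to 1.51% beyond 20 kb.

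The genes also lay in denser stretches, with a median of 30 models within 500 kb against 22. They made up 3.22% of the genes of chromosome 4 and 5.30% of those of chromosome 2, the lowest and the highest share among the 10 chromosomes. Their median length was 2319.5 bp, against 2545 bp. All positions are as deposited, on a genome build that the sources used here do not name.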

How the data were processed

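The submitters' processing notes name Bowtie2, Bismark and cutadapt. Their versions, the genome build and how far the upstream region extends are not stated in the sources used here. Per the labels' protocols, libraries were sequenced as 101 nt pairs. Per the file headers, each deposited table gives, for gene body and upstream region and for 3 contexts, a methylated call count and a level in percent computed by the authors. Total calls were recovered as count over level (a whole number within rounding for 100% of 800474 values), and estimated from the other contexts of the gene where the count was 0. A region with 0 in all 3 contexts was treated as missing. The 57 chloroplast and 124 mitochondrial models were left out of the set (71 would have met its rule).

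Levels were fitted with limma 3.58.1 (R 4.3.3), with moderation trended on the mean level, over all nuclear genes with at least 10 calls in each of the 10 seed and endosperm libraries. Fits and the quasi-binomial model (0.5 calls added) were tested on simulated data. Alternatives were a constant prior, the quasi-binomial model, 20 calls, day as a covariate and leaving out each library. Intervals are 95% Wilson intervals, computed with scipy 1.17.1, pandas 2.3.3 and numpy 2.4.6 under Python 3.11.15, and figures were drawn with matplotlib 3.10.9.

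The genes and lists were chosen with earlier results of these data known. The text names, among genes with a name, up to 4 per list, the 5 largest differences per contrast, measure and direction (2 unnamed where none had a name), the 8 with the highest seed or endosperm upstream level and the 8 highest and 4 lowest leaf body CG levels (7 with ties). Other genes were named after their values were seen. Names came from an NCBI RefSeq table of another assembly, used for names only, which matched 18774 nuclear models and named 2541. No upstream sequence was used here.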

Additional observations from a re-analysis of the deposited data

Results flagged for a closer look

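The 8 endosperm libraries were examined for a single library far from the rest, in 29 series of values, by Dixon's ratio of the gap to the nearest library over the whole range, with a critical value of 0.526 for 8 libraries. Chance passes about 1 in 20 series that are independent and not picked on their values. The series here share libraries, and some are of genes picked by their values, DBP4 among them. The rate therefore does not apply as such here, where 6 series passed. In 5 of them the 10-day endosperm was high. The mean over the 1598 genes gave a ratio of 0.822 in upstream CG (10.7% against 4.36 to 5.49% in the other 7 libraries), 0.700 in upstream CHG (9.65% against 4.14 to 5.79%) and 0.637 in upstream CHH (3.49% against 1.90 to 2.48%). The median ratio of upstream to body CG calls gave 0.747 (1.46 against 1.12 to 1.21). The upstream CG level of DBP4 (GRMZM2G380377) gave 0.675 (48.2% against 0.80 to 16.2%). The sixth was the mean body CG level, with a ratio of 0.552, where the 11-day endosperm was low at 14.6% against 15.5 to 16.3%. The cause of these was not tested.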

How the results depend on the processing

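No paired analysis was possible because the labels give the libraries no replicate numbers and each stage is 1 library. Counting the set anew gave 848 genes at a leaf level under 2.5% and 2898 at under 10%, and it changed little with a minimum of 10 or 40 leaf calls. The number low in all 10 seed and endosperm libraries was 106 at a limit of 2.5% and 900 at 10%, and 455 to 655 with 1 library left out, the most without the 10-day endosperm. In the 7 endosperm libraries without day 10, an alternative chosen after seeing the data, it was 717. The share with a body CG level under 5% was 54.96 to 58.1% under its 4 alternatives.

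For whole seed against endosperm the counts were, upstream, 0 in CG and 18 in CHG with a constant prior. With day as a covariate they were 0 in CG and CHG and 36 in CHH upstream, and 0 in CG and CHG and 11 in CHH in the body. The quasi-binomial model gave 0 in CG and 32 in CHH upstream, and 0 in CG, 7 in CHG and 18 in CHH in the body. Where a seed library was left out, the other was assumed to vary like the endosperm libraries. With 1 library left out, the counts ran from 0 to 6 in upstream CG, 4 to 50 in upstream CHG, 45 to 104 in upstream CHH, 3 to 15 in body CG, 6 to 42 in body CHG and 25 to 90 in body CHH. Upstream CHG gave 4 without the 3-day seed, 7 without the 5-day seed, 50 without the 10-day endosperm and 17 to 20 without the 13-, 20- or 25-day endosperm. Upstream CHH gave 104 without the 5-day seed. Upstream CG gave 6 without the 10-day endosperm. Body CG gave 3 to 7 without the 3-day seed or the 9-, 11-, 13-, 15-, 20- or 25-day endosperm. Body CHG gave 6 without the 3-day seed, and with an endosperm library left out 42 (day 7), 17 (day 11) and 15 (day 25). Body CHH gave 90 without the 5-day seed and 25 without the 11-day endosperm. The trend with day gave 6 in upstream CHH and 1 in body CHH with a constant prior and 1 in upstream CHG with the quasi-binomial model, and 0 to 0 in every measure with 1 library left out.

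The 14 results of the seed comparison picked by the naming rule gave the same call under 121 alternatives and lost it under 74, and 0 changed sign. MADS36 kept its call under all of its alternatives, and AUX17 in body CHG and gla3 lost it under 1 each. GRMZM2G432738 and GRMZM5G892341 in upstream CG lost it under 12 each. The cause of these changes was not tested. Fewer libraries, an added covariate and few calls each limit what single genes can show.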
